A study of Mus musculus with 6 samples.

Results

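The PYHIN genes of the mouse (the interferon-inducible p200, or IFI200, family) were examined in RNA-seq libraries of hypoxic primary neonatal mouse cardiomyocytes (NMCMs). The members were chosen by name as Ifi203, Ifi204, Ifi205, Ifi207, Ifi209, Ifi211, Ifi213, Mndal and Aim2, and all 9 were found among the 57010 genes of the count table. The libraries came from 2 groups under hypoxia (HO), which were HO + Vehicle (V1 to V3) and HO + β-SITO (T4 to T6), where β-SITO is β-sitosterol, a plant sterol. Both groups shared the hypoxia and the origin of the cells, and the study's methods describe NMCMs from neonatal C57BL/6 mice, separated from fibroblasts by differential adhesion. The β-SITO dose and the time under hypoxia of these libraries are not stated in the sources used here, and no normoxic library was analysed. Nothing states that the libraries of a group came from separate cultures, so the p-values measure only the spread between these samples, which may be technical.

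PYHIN proteins usually pair a pyrin domain, through which they bind other pyrin proteins, with a HIN-200 domain, which binds double-stranded DNA. AIM2 is the member that senses DNA in the cytosol and recruits the adaptor ASC, which activates caspase-1 in the complex called the inflammasome. IFI204 has been described as a DNA sensor upstream of the adaptor STING, and many genes of the family are induced by interferons and are expressed in macrophages and other immune cells.

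V1 to V3 held 16694734 to 17082129 counts and T4 to T6 16962152 to 18460522. All 13 listed cardiomyocyte markers were detected, and their summed level was 6623 to 7575 CPM (counts scaled to a common library size) in V1 to V3 and 5919 to 10130 CPM in T4 to T6. Markers of other cell types were present too. Those of fibroblasts summed to 30094 to 31385 CPM against 44786 to 45881 CPM, and those of endothelial cells to 213 to 243 CPM against 855 to 884 CPM. T4 stood apart within its group, with the lowest cardiomyocyte sum (5919 CPM, against 10001 and 10130 CPM in T5 and T6), so the members' changes, sum, shares and order are also given without it. A suffix of the library names occurred in the HO + β-SITO group alone, and an effect of treatment and one of preparing these libraries separately, had that been done, cannot be told apart.

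The sequences upstream of the genes are shown first, because interferon-stimulated genes often carry an interferon-stimulated response element (ISRE), which transcription factors activated by interferons bind. RefSeq promoter windows of the GRCm38.p6 build, from 250 bases before to 50 bases after the transcription start, were found for 8 of the 9 members. Ifi204 had no entry, and Mndal and Ifi203 had more than one start. The core GAAANNGAAA, searched on both strands, occurred in 7 of the 10 windows of these members, compared with 3.44% of all 32851 windows, and in at least 1 window of 6 of the 8 members. The genes are close copies, and the windows of the Mndal starts overlap, as do those of the Ifi203 starts. These windows are therefore not independent of one another. A gamma-activated site (TTCNNNGAA, the same on both strands), a motif of genes induced by interferon gamma, occurred in 0 of the 10 windows and in 8.30% of all windows, so it overlapped no core in the members. The stretches below run 5′ to 3′ on the strand of the gene, and capitals mark the core. The start and end of each follow its name.
Ifi213, chr1:173599311-173599370, minus strand: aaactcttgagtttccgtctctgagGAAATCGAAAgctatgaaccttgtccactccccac
Ifi207, chr1:173741816-173741875, minus strand: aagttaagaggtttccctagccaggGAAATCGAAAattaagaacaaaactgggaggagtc
Mndal, chr1:173880189-173880248, minus strand: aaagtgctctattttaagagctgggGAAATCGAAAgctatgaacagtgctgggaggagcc
Ifi211, chr1:173913049-173913108, minus strand: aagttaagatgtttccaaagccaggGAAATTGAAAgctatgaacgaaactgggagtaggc
Ifi203, chr1:173942493-173942552, minus strand: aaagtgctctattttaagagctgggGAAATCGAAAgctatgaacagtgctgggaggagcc
Ifi205, chr1:174031855-174031914, minus strand: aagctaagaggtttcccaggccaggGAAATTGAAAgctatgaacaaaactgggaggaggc
Ifi209 without a core, chr1:173630755-173630814, plus strand: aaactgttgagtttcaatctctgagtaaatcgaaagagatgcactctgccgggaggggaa

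With the start site counted as 0, the core began at -73 in Ifi213, -41 in Ifi207, -37 in Ifi211, -36 in Mndal and -35 in Ifi203. It lay further upstream, at -134, in Ifi205, which held another match on the opposite strand at 23, after the start. The other Mndal start had a match on the opposite strand at -54, and the other Ifi203 start had none. All the cores shown read GAAATNGAAA, a form noted after the windows were seen and present in 0.530% of all windows. The stretches of Mndal and Ifi203 were the same 60 bases. In Ifi209 the nearest letters to the Ifi213 element GAAATCGAAA were TAAATCGAAA at -79, with the substitution G1T, counted from 1 at the 5′ end of the element. Other genes of the family that are no members, Ifi206, Ifi208 and Ifi214, held GAAATCGAAA in their windows as well.

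The Aim2 window is given whole because it held neither motif, and its nearest match to GAAATCGAAA had 3 mismatches. GENCODE vM21 lists further Aim2 starts outside it.
Aim2, chr1:173420354-173420653, plus strand: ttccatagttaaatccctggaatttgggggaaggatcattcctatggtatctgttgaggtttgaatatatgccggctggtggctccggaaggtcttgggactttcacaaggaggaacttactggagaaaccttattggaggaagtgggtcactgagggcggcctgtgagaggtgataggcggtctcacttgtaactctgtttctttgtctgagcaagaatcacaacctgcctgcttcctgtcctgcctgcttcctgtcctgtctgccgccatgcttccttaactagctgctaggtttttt

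After β-SITO the PYHIN family was lower than with vehicle, and the extent differed widely between members. Of the 9 members, 8 were called lower and 0 higher, where a gene was called at an adjusted p under 0.05 and a change of more than 2-fold in edgeR's quasi-likelihood test. Among all 14799 tested genes, 10.1% were called lower and 12.8% higher. Ifi205 and Ifi213 held few counts in T4 to T6 and passed the filter on low counts through the HO + Vehicle libraries. These members could thus hardly be called higher. The members' median log2 fold change was -5.34 (range -10.26 to -0.85), compared with -0.01 over all tested genes. The same 8 members were more than 8-fold lower with an adjusted p under 0.05, which 3.12% of all tested genes were. At any fold, 9 of 9 members had an adjusted p under 0.05 and were lower, compared with 33.8% of all tested genes. In 9 of 9, every HO + β-SITO library lay below every HO + Vehicle library, compared with 35.8% of all tested genes. In these bulk samples, fewer cells of a type and less RNA per cell cannot be told apart.

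Ifi205, a HIN-200 gene that has been linked to control of the gene for ASC, had the largest fitted decrease (1226-fold). The counting interval of Ifi213 given below, 129 to 28620-fold, includes this value, so the order of these members is not settled. The level of Ifi205 was 383, 471 and 475 CPM in V1, V2 and V3 and 0.360, 0.281 and 0.416 CPM in T4, T5 and T6. These came from 6060, 7510 and 7668 counts against 7, 5 and 8 counts, so each HO + β-SITO library kept only a handful of reads and the groups lay far apart. The log2 fold change was -10.26 ± 0.15 (SE, n = 3 libraries per group, adjusted p = 7.08e-17 in edgeR). Ifi205 was thus the third most abundant member per kilobase of exon in the HO + Vehicle group and the next to last in the HO + β-SITO group.

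Ifi213 was the least abundant member, and it was close to the limit of detection after β-SITO. It had 194, 202 and 218 counts in V1 to V3 (12.3, 12.7 and 13.5 CPM) and 1, 0 and 0 counts in T4, T5 and T6. The single read was in T4. Over the groups, 614 counts stood against 1 count, a ratio of 723-fold with an exact 95% interval of 129 to 28620 that covers counting error only. The adjusted p was 1.92e-12 in edgeR, and the ratio cannot be placed more closely at this depth.

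Ifi204, the proposed DNA sensor upstream of STING, was the member with the most counts in the HO + Vehicle group. It was at 456, 504 and 529.9 CPM in V1, V2 and V3 and at 13.1, 9.50 and 9.84 CPM in T4, T5 and T6, with no overlap. The log2 fold change was -5.52 ± 0.11 (SE, n = 3 per group, adjusted p = 8.12e-16, edgeR), or 45.9-fold lower.

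Ifi211 and Ifi209 moved by nearly the same factor as Ifi204. Ifi211 was at 318, 343 and 361 CPM in V1 to V3 and at 10.4, 7.42 and 7.24 CPM in T4 to T6. Its log2 fold change was -5.34 ± 0.11 (SE, adjusted p = 1.45e-15, edgeR). Ifi209 was expressed at a lower level, with 39.4, 45.8 and 43.8 CPM against 1.08, 1.24 and 0.677 CPM, and changed by -5.43 ± 0.14 (SE, adjusted p = 3.36e-14, edgeR). The 95% intervals of these 3 log2 fold changes were -5.75 to -5.29 for Ifi204, -5.58 to -5.11 for Ifi211 and -5.73 to -5.12 for Ifi209, and they overlapped.

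Ifi203 and Mndal changed somewhat less. Ifi203 was at 292, 347 and 342 CPM in V1 to V3 and at 15.5, 10.6 and 11.9 CPM in T4 to T6, a log2 fold change of -4.69 ± 0.11 (SE, adjusted p = 1.04e-14, edgeR). Mndal was at 146, 187 and 179.99 CPM and then at 11.5, 7.87 and 5.47 CPM, a log2 fold change of -4.37 ± 0.16 (SE, adjusted p = 2.2e-12, edgeR). Within the HO + β-SITO group, T4 was high and T6 low for Mndal, with a wider relative spread (8.26 ± 3.02 CPM, SD, n = 3) than for Ifi203 (12.7 ± 2.53 CPM).

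Ifi207 kept more of its expression than the other members called lower. It was at 158, 176 and 174 CPM in V1 to V3 and at 17.99, 13.04 and 12.3 CPM in T4 to T6, and T4 was again the highest of its group. The log2 fold change was -3.55 ± 0.11 (SE, adjusted p = 1.72e-13, edgeR), or 11.7-fold lower. Its 95% interval (-3.78 to -3.32) did not reach those of the other 7 called members.

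Aim2, the receptor of the DNA-sensing inflammasome, stood apart from the rest of the family. It was at 19.1, 20.1 and 23.2 CPM in V1, V2 and V3 and at 12.5, 11.2 and 10.9 CPM in T4, T5 and T6. The lowest HO + Vehicle library was therefore above the highest HO + β-SITO library, but the difference was small. The log2 fold change was -0.85 ± 0.10 (SE, 95% interval -1.06 to -0.63, n = 3 per group, adjusted p = 2.16e-06, edgeR), or 1.80-fold lower, under the 2-fold threshold. Aim2 was thus not called, and it was not called at 2-fold under any alternative that kept the fold threshold.

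**Figure D1:**
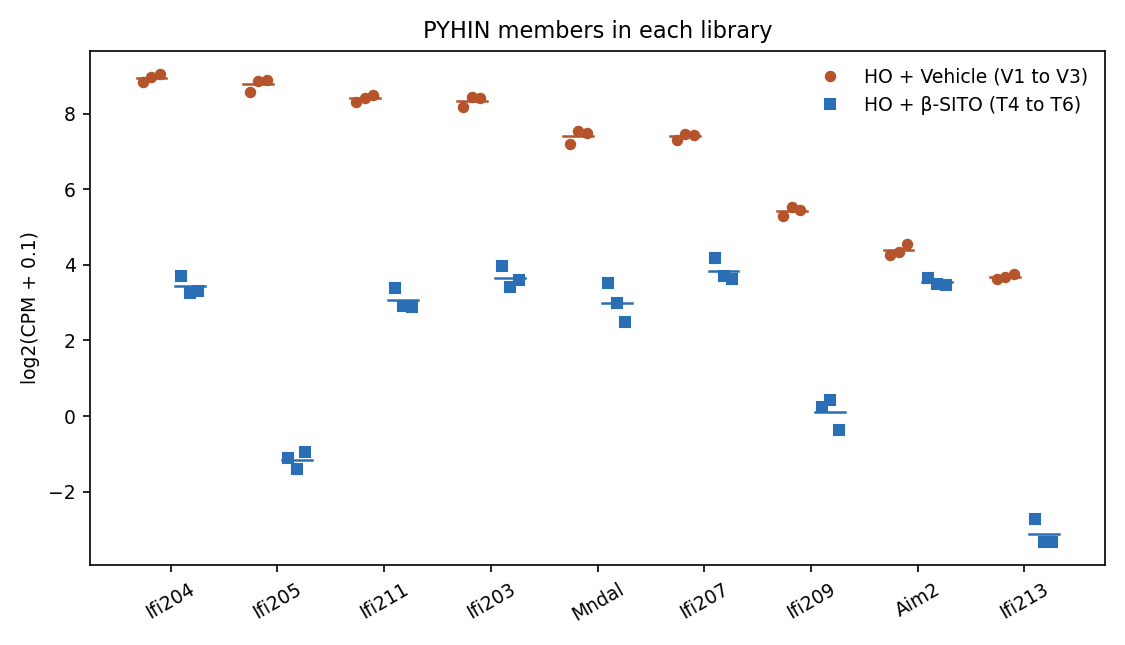
Level of each PYHIN member in each library as log2(CPM + 0.1), with circles for HO + Vehicle (V1 to V3), squares for HO + β-SITO (T4 to T6) and a short line at each group's mean on this scale. The groups are separate for all 9 members, widest for Ifi205 (383 to 475 against 0.281 to 0.416 CPM) and narrowest for Aim2 (19.1 to 23.2 against 10.9 to 12.5 CPM).

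The extreme values within a group often came from 1 library. V1 had the lowest HO + Vehicle CPM for 9 of 9 members, and T4 had the highest HO + β-SITO CPM for 7 of 9. Without T4 the log2 fold changes were -4.86 for Ifi203, -5.68 for Ifi204, -10.27 for Ifi205, -3.74 for Ifi207, -5.49 for Ifi209, -5.54 for Ifi211, -4.69 for Mndal and -0.91 for Aim2. For Ifi213 no fold is given, since T5 and T6 held 0 counts. The same members were called with and without it. T4 also had the highest summed level of macrophage markers in its group (3593 CPM, against 2945 and 2925 CPM in T5 and T6), and the part of this in the members' values was not tested.

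**Figure D2:**
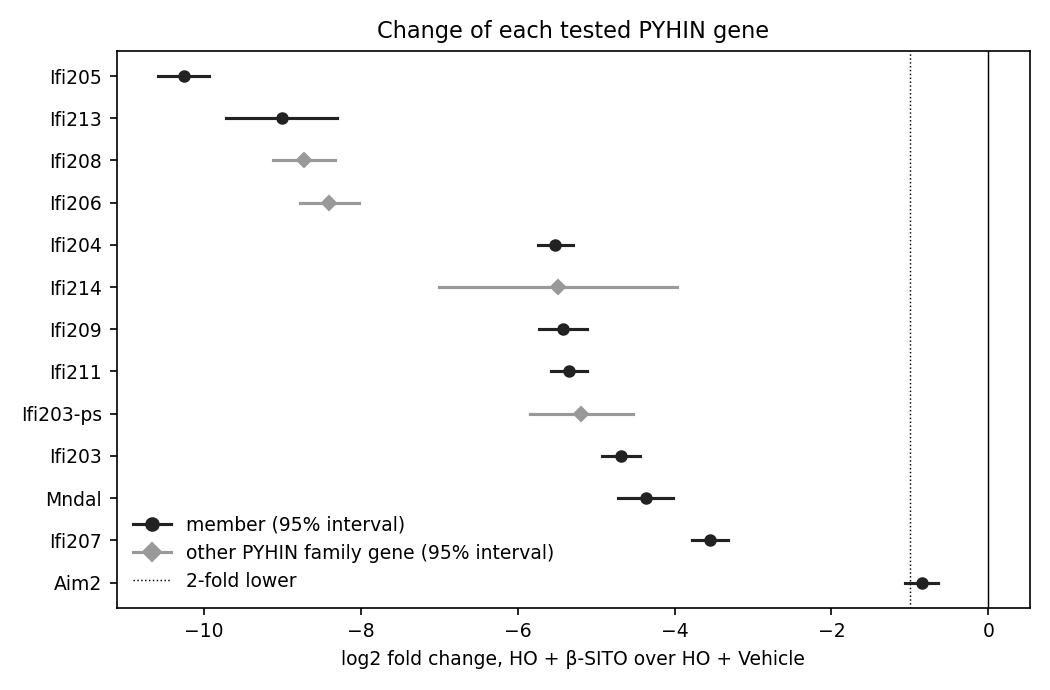
Log2 fold change (HO + β-SITO over HO + Vehicle, edgeR) with its 95% interval for the 9 members (circles) and the 4 other tested PYHIN genes (diamonds), with a dotted line at 2-fold lower. Aim2 at -0.85 is the sole gene right of that line by its point estimate, and Ifi205 at -10.26 lies furthest left, with the position of Ifi213 resting on 1 read in T4 to T6.

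The macrophage is a cell type in which PYHIN genes are known to be expressed. Of 14 tested macrophage markers, 2 were called lower (Fcgr1, log2 fold change -2.18, and Cd14, -1.56) and 8 higher, and none was at 0. Those called higher ranged from Lyz2 (1.12) to Mrc1 (4.79), with Mertk, C1qa, C1qb, C1qc, Csf1r and Cd68 between them. Adgre1 (-0.06), Ptprc (-0.03) and Itgam (0.47) were not called, so the markers did not rise evenly. The summed level of the 14 markers was 1425 to 1553 CPM in V1 to V3 and 2925 to 3593 CPM in T4 to T6. Lyz2 held the largest part of it, with a mean of 647 CPM in V1 to V3 and 1408 CPM in T4 to T6. Spi1, a transcription factor of myeloid cells, was not called (log2 fold change 0.47). Of 8 neutrophil markers 3 could be tested, Csf3r, Mmp8 and Camp, and 3 were called lower. The sum of the 8 was 23.3 to 24.5 CPM against 5.45 to 8.53 CPM, and most of it came from Csf3r and Mmp8. S100a8, S100a9 and Ngp were too scarce to test and did not fall. Their mean CPM were 0.397, 0.375 and 0.126 in V1 to V3 and 0.401, 0.453 and 0.350 in T4 to T6. The defining marker Ly6g was at 0 in every library. Of the dendritic cell markers 3 of 7 could be tested and 1 was called higher (15.2 to 17.2 against 19.5 to 21.6 CPM), with Siglech and Cd209a at 0. Lymphocyte markers were scarce (0.496 to 1.13 against 2.004 to 2.81 CPM), and of 10 the only one that could be tested, Cd4, was called higher (5, 11 and 3 counts against 35, 37 and 38, log2 fold change 2.28), with Cd3e, Cd3d, Cd3g and Ncr1 among those at 0. The part of these cell types in the members' change was not tested, and the counts do not assign the members to a cell type.

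Taken as a single feature, the 9 members held 28858, 33591 and 34575 counts in V1, V2 and V3 and 1603, 1088 and 1129 counts in T4, T5 and T6. This was 0.173% to 0.202% of all counts against 0.00618% to 0.00868%. In CPM the sums were 1813, 2109 and 2141 against 83.6, 60.8 and 58.5. The summed family was thus 29.9-fold lower (95% interval 24.8 to 36.0), a log2 fold change of -4.90 ± 0.13 (SE, adjusted p = 6.84e-15, edgeR), and -5.08 without T4. The exact permutation test of the sums gave p = 0.1 (two-sided), the smallest that 3 libraries against 3 allow.

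The unequal changes altered the make-up of the family. In the HO + Vehicle group, Ifi204 held 24.6 ± 0.560% of the family's counts (SD, n = 3), Ifi205 21.8 ± 0.738%, Ifi211 16.9 ± 0.568% and Ifi203 16.1 ± 0.281%. In the HO + β-SITO group the largest shares were those of Ifi207 (21.4 ± 0.466%), Ifi203 (18.8 ± 1.502%) and Aim2 (17.4 ± 1.93%). Ifi205 dropped to 0.535 ± 0.151%, and Aim2 had been at 1.03 ± 0.0663%. The remaining shares were 16.0% for Ifi204, 12.4% for Ifi211, 12.0% for Mndal (8.43% before), 1.49% for Ifi209 (2.13% before) and 0.0208% for Ifi213 (0.635% before). The groups did not overlap for any member's share, and each two-sided exact permutation test gave p = 0.1, the smallest possible. The log2 ratio of Aim2 to the summed other 8 members was -6.59 ± 0.0951 and became -2.25 ± 0.199 (SD, n = 3), a difference of 4.33 with an exact permutation p = 0.1. Without T4 the HO + β-SITO shares were 21.1% for Ifi207, 18.8% for Ifi203, 18.49% for Aim2, 16.1% for Ifi204, 12.2% for Ifi211, 11.1% for Mndal, 1.59% for Ifi209, 0.584% for Ifi205 and 0 for Ifi213. Shares are bound to one another, so a share can rise although the level fell, as it did for Aim2, Ifi207, Ifi203 and Mndal.

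**Figure D3:**
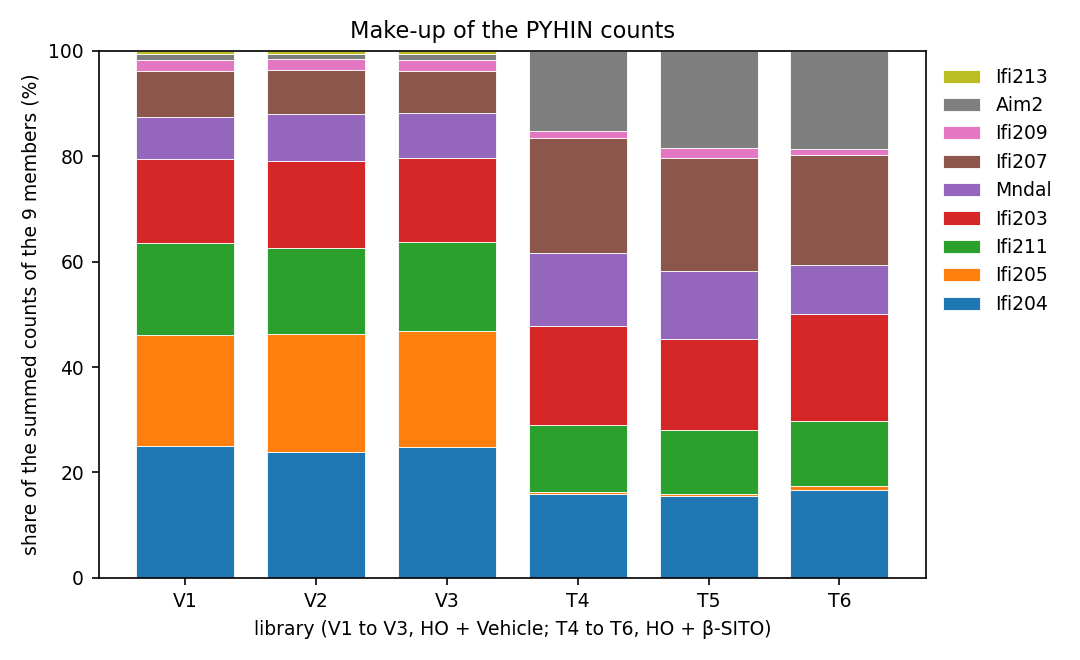
Share of each member in the summed counts of the 9 PYHIN members (%), 1 stacked bar per library, V1 to V3 for HO + Vehicle and T4 to T6 for HO + β-SITO. Ifi205 takes 21.0% to 22.4% of the bars of V1 to V3 and 0.437% to 0.709% of those of T4 to T6, whereas Aim2 goes from 0.956% to 1.08% up to 15.2% to 18.6%.

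For levels between genes, CPM were divided by the length of all exons of the gene in kilobases (GENCODE vM21). In the HO + Vehicle group the order was Ifi211 (191 CPM per kb), Ifi204 (139), Ifi205 (106), Ifi207 (49.5), Ifi203 (48.7), Mndal (47.1), Ifi209 (12.1), Aim2 (5.95) and Ifi213 (1.87). Ifi207, Ifi203 and Mndal were not separated, since the values of the libraries overlapped between neighbours. In the HO + β-SITO group the order was Ifi211 (4.68 CPM per kb), Ifi207 (4.22), Aim2 (3.30), Ifi204 (3.03), Mndal (2.28), Ifi203 (1.89), Ifi209 (0.281), Ifi205 (0.0844) and Ifi213 (0.0025). There, Ifi211 overlapped with Ifi207, Aim2 with Ifi204, Ifi204 with Mndal and Mndal with Ifi203. Without T4 the order of the means was the same. Aim2 moved from the eighth to the third place of this order while its own level fell.

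PYHIN genes are close copies of each other, and this limits how reads can be divided between them. In GENCODE vM21, 46.4% of the 150-base windows of Ifi211 transcripts also occurred in transcripts of another gene, mostly Ifi205. The corresponding share was 12.7% for Ifi205, 9.28% for Ifi209 (mostly Ifi214), 6.77% for Ifi204, 1.61% for Mndal, 0.827% for Ifi203, 0.223% for Ifi213 and 0 for Ifi207 and Aim2. With 50-base windows the share reached 72.8% for Ifi211, compared with 0.742% for Aim2. How the deposited counts treat such reads is not given in the sources used here, so the individual levels of Ifi211, Ifi205, Ifi209 and Ifi204 are uncertain to that extent, while Ifi207 and Aim2 are hardly touched at the read length of 150 bases.

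The genes lie side by side on chromosome 1. In the deposited table (GRCm39) the stretch from the start of Aim2 to the end of Ifi205 covers 173178445 to 173859376, or 680.9 kb, and holds 22 genes. Of these 14 belong to the family and the other 8 were not tested, so no tested gene of another family lay between the members. Aim2 (173178445 to 173293606, plus strand) is at one end and Ifi205 (173839564 to 173859376, minus strand) at the other. These were also the members with the smallest and the largest fitted change, although the order of Ifi205 and Ifi213 is not settled.

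Other PYHIN genes of the cluster were lower too. Of 10 further symbols listed, 5 had a row and 4 could be tested, and 4 of 4 were called lower with a median log2 fold change of -6.94. Each of these held at most 5 counts in T4 to T6 and passed the filter on low counts through the HO + Vehicle libraries. They could thus hardly be called higher, and their count adds no separate support. Ifi206 had 958, 943 and 1089 counts in V1 to V3 and 4, 1 and 5 in T4 to T6 (log2 fold change -8.40 ± 0.18, SE, adjusted p = 2e-15, edgeR). Ifi208 had 518, 533 and 531 counts against 2, 1 and 1, a ratio of 466-fold (exact 95% counting interval 182 to 1712). Ifi214 was scarce, with 12, 17 and 24 counts against 0, 0 and 1, a ratio of 62.4-fold (exact 95% counting interval 10.7 to 2512). The pseudogene Ifi203-ps had 93, 105 and 93 counts against 5, 3 and 1 (-5.19 ± 0.31, adjusted p = 6.71e-10, edgeR). Ifi202b, which lacks the pyrin domain and counteracts AIM2, had 1 count in all libraries together and was not tested.

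On the Aim2 side the nearest tested genes were Cadm3, Ackr1 and Dusp23. Ackr1, an atypical chemokine receptor, has its lower coordinate 19.0 kb before the Aim2 start of the deposited table. Ackr1 had 150, 143 and 141 counts in V1 to V3 and 6, 8 and 1 in T4 to T6 and was called lower (log2 fold change -5.05 ± 0.28, SE, adjusted p = 3.51e-10, edgeR). Cadm3, a cell adhesion gene whose interval overlaps that of Aim2 on the opposite strand with 0 shared exon bases in GENCODE vM21, was not called (-0.91, adjusted p = 0.000521, edgeR). Without knowledge of how strand was counted, reads in that overlap cannot be told apart. Dusp23 (-0.31) was not called. Beyond Ifi205, Rgs7 was called higher, from 5, 5 and 0 counts to 14, 16 and 18 counts.

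**Figure D4:**
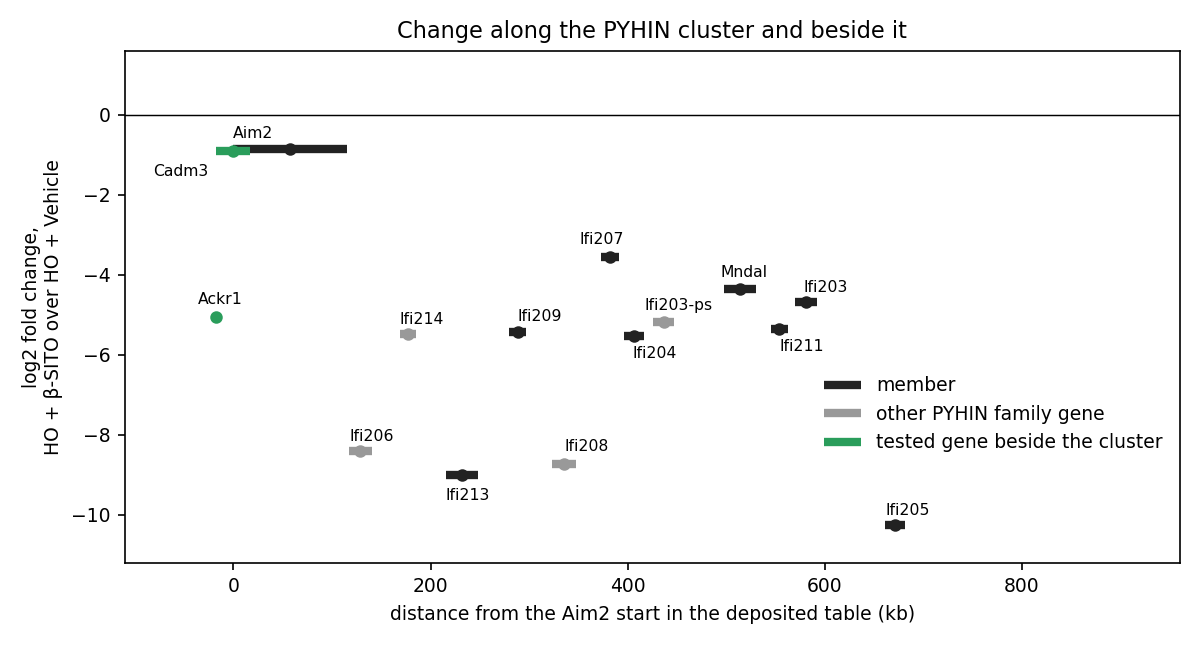
Log2 fold change (HO + β-SITO over HO + Vehicle) of each tested PYHIN gene and 2 neighbours against the distance from the Aim2 start (kb), with a bar for the length of each gene and a dot at its middle. Members are black, other PYHIN genes grey and neighbours green. Aim2 (-0.85) and Cadm3 (-0.91) lie nearest to 0, and the neighbour Ackr1 lies at -5.05. The PYHIN genes from Ifi206 to Ifi205 lie between -3.55 and -10.26.

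The genes with the profile most like the mean of the members were found by the root mean square distance of centred log2(CPM + 0.1) over the 6 libraries. Phf11d was nearest (0.0705), followed by Gbp8 (0.0749), Slfn8 (0.0832), Nlrc5 (0.103) and Tlr2 (0.112). Their log2 fold changes were -5.29, -5.50, -5.04, -5.27 and -5.02, and values near the members' mean follow from this way of choosing. Among the members Ifi211 was the closest to the mean (0.102), and Aim2 (2.16) and Ifi205 (2.40) were the furthest from it. The added 0.1 CPM lowers the distance of Ifi213 (0.828), whose HO + β-SITO values are close to the limit of detection.

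The inflammasome list mainly holds parts that AIM2 engages (ASC, caspase-1 and what it cleaves) and sensors and partners of other inflammasomes. Of 19 tested genes 11 were called lower and 2 higher, beside 10.1% and 12.8% of all tested genes, so the count of higher genes was near the background, and the median log2 fold change was -1.30. Pycard, which encodes ASC, was at 23.1, 28.3 and 22.8 CPM in V1 to V3 and at 8.84, 6.58 and 5.41 CPM in T4 to T6 (log2 fold change -1.83 ± 0.14, SE, adjusted p = 2.01e-08, edgeR). The groups did not overlap. Casp1, its protease, changed by -1.64, Gsdmd, the pore-forming gasdermin that caspase-1 cleaves, by -2.57 and Casp4, the protease of the non-canonical inflammasome, by -4.39. The largest decreases were in the cytokines Il1b (3124, 3522 and 3447 counts against 4, 1 and 2, log2 fold change -10.65) and Il1a (-8.62). Il18, the other cytokine that caspase-1 matures, changed by -1.30 and the sensor Nlrp3 by -1.10, and both were called. Il18bp, also listed, encodes the IL-18 binding protein rather than an inflammasome part, and it was called lower (-5.29). The sensor Nlrc4 was not called (0.57, adjusted p = 0.0175, edgeR), and neither was Nek7, a partner of NLRP3 (-0.14). The 2 genes called higher were Card9 (1.40) and Nlrp1b (1.96, from 6, 2 and 2 counts to 13, 13 and 21 counts).

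Genes around the AIM2 inflammasome that act on bacteria or in cell death were lower in most cases. Of 8 tested, 7 were called lower and 0 higher, beside 10.1% and 12.8% of all tested genes, and the median log2 fold change was -4.34. Gbp2 (-7.75) and Gbp5 (-7.33), GTPases that release microbial DNA or ligands to the inflammasome, changed most. Irgm1, another interferon-inducible GTPase (-4.68), Mlkl, the executor of necroptosis (-4.001), and its kinase Ripk3 (-1.30) were also called. Hmgb1, a DNA-binding alarmin, was not called (0.17). Irf1 and Hmgb1 each stand in 1 more list.

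In the pathway from cytosolic DNA to STING, which IFI204 has been placed in, the change was less even. Of 23 tested genes 6 were called lower and 1 higher, beside 10.1% and 12.8% of all tested genes, and the median log2 fold change was -0.22. The count called higher was small and became 4 when scaled by library size alone or by the upper quartile. It is therefore not read against the background. Sting1 was at 207, 199.6 and 203 CPM in V1, V2 and V3 and at 41.5, 32.2 and 35.4 CPM in T4, T5 and T6 (-2.48 ± 0.08, SE, adjusted p = 3.37e-13, edgeR). Tbk1, the kinase downstream of STING, changed by -1.38. Cgas, which makes the ligand of STING, was not called (-0.89, adjusted p = 4.79e-05, edgeR). Irf3, the factor that TBK1 phosphorylates, was not called (0.37). Zbp1, a sensor of Z-form nucleic acids (-6.52), and Samhd1, a dNTP hydrolase (-3.29), had the largest decreases, and Enpp1, which degrades the STING ligand, was called higher (1.52). Trex1 was listed at 0 in all 6 libraries, and its interval overlaps that of Atrip on the same strand, which had 227 to 344 counts.

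Interferon receptors and the factors below them were also lower in part. Of 19 tested genes 10 were called lower and 0 higher, against the same background, and the median log2 fold change was -1.503. Stat2 (-3.43) and Irf9 (-1.67), transcription factors that act together in the response to type I interferons, were both called. Irf7 (-6.85) and Usp18 (-6.87), both interferon-stimulated, had the largest decreases, and Irf1 changed by -3.51. The receptor subunit Ifnar2 was called (-1.69) and Ifnar1 was not (-0.79), and Irf8, a myeloid factor, was not called (-0.61). Ifnb1, which encodes interferon β, had 1 count in all libraries together, so its change was not measurable at this depth.

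**Figure D5:**
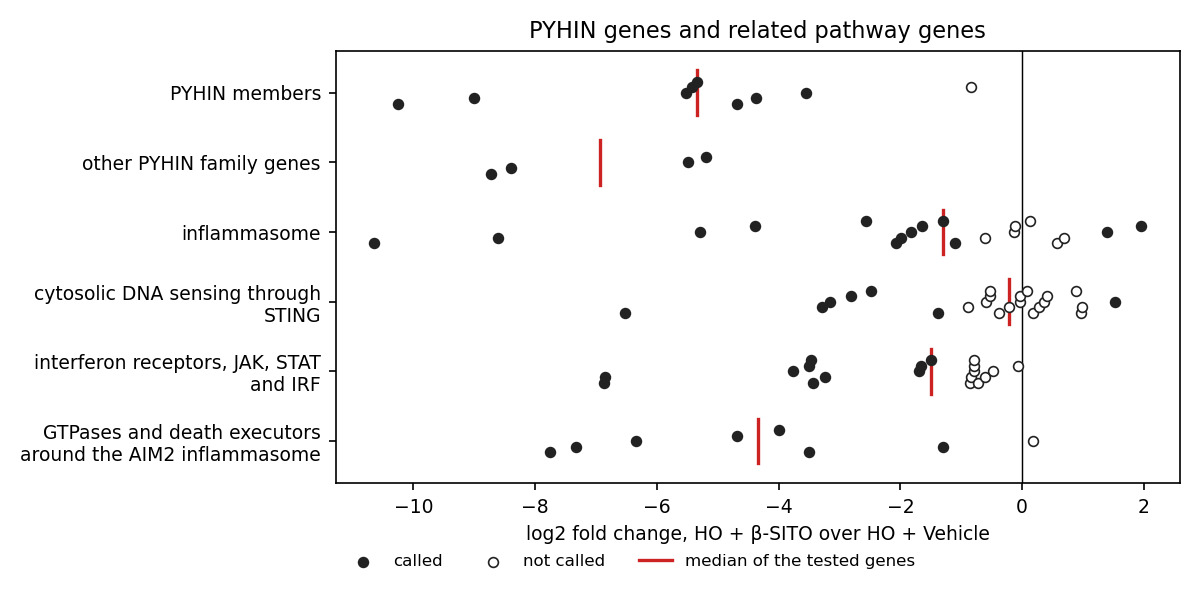
Log2 fold change (HO + β-SITO over HO + Vehicle) of every tested gene in the 6 lists, 1 row per list, with filled circles for called genes, open circles for genes not called and a red line at the median. The medians lie at -5.34 for the PYHIN members, -6.94 for the other PYHIN genes, -1.30 for the inflammasome, -0.22 for DNA sensing through STING, -1.503 for interferon receptors and their factors and -4.34 for the GTPases and death executors.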

How the data were processed

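RNA-seq was measured in 6 libraries of hypoxic NMCMs. Per the submitters' processing notes, reads were checked with FastQC, aligned with HISAT2 to GRCm39 and counted per gene with featureCounts. The authors deposited these raw counts in 1 table, with no normalization. Tool versions, the handling of strand and of multiply mapped reads, and the annotation release are not given in the sources used here. Sequencing was paired-end, and the library kit is named differently by the labels (Illumina) and the study's methods (ABclonal). Columns were matched to libraries by their labels, and a column suffix "C" occurs only in the HO + β-SITO group.

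From the deposited counts, genes were filtered with filterByExpr, scaled by TMM and compared with the quasi-likelihood test of edgeR 4.0.16 (limma 3.58.1, R 4.3.3), with Benjamini-Hochberg adjustment over all 14799 tested genes. The group was the only term. CPM are counts divided by the TMM-scaled library size, and pseudocounts of 0.1 CPM were used for likeness and plots only. Single values were compared with two-sided exact permutation tests, and exact counting intervals came from binomial proportions (scipy 1.17.1). The code was checked on simulated counts. DESeq2 1.42.0, limma-voom, glmTreat, no fold cutoff, other scalings and filters, removal of mitochondrially encoded genes and removal of each library were the alternatives.

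The members and lists were chosen with earlier results of these data known. The named genes are the members, the other family genes, the listed pathway genes (by name, or the 2 called genes with the largest decrease and increase among those with a mean of at least 100 counts), the 3 nearest tested genes on each side, and the 5 genes with the most similar profile. A few of these genes and markers are left out of the text. Exon lengths and transcript sequences came from GENCODE vM21 on GRCm38, matched by gene identifier, and promoter sequences from RefSeq on GRCm38.p6. Positions of genes are those of the deposited table.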

Additional observations from a re-analysis of the deposited data

How the results depend on the processing

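All 9 members kept their direction and their side of the threshold under each of the 15 alternatives run on their fold changes, as did the summed family. With the fold threshold kept, 8 members were called lower throughout, and without it 9. Mndal ranged from -4.69 to -4.13 and Aim2 from -0.91 to -0.70 in log2 fold change, while the fitted values of Ifi213 depend on 1 read in T4 and are not given as a range. Scaling by library size alone or by the upper quartile raised the median gene by 0.15 and 0.14 and gave -0.70 and -0.71 for Aim2. Without a fold cutoff, 5007 genes were called lower and 4885 higher, and the lists gave 12 lower and 8 higher for STING, 1 higher for the GTPases and death executors and 18 lower for the interferon receptors and factors. The inflammasome genes called higher, 2 in the report, were 0 with glmTreat and 1 with a mean of at least 50 counts. Those of the STING list, 1 in the report, were 4 by library size alone and 4 by the upper quartile. Of all 14799 tested genes, 2270 and 2257 were called higher with these scalings, against 1888 in the report. The STING list gave 2 higher with the filter at 50 counts, and 2 to 3 with each library left out. The STING genes called higher only in some settings lie near 2-fold, such as Rnaseh2c (0.97) and Slc19a1 (0.98). No paired analysis was possible because the groups share no replicate numbers (1 to 3 and 4 to 6).

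Depth limits Ifi213, Ifi208 and Ifi214 most, since the HO + β-SITO libraries held 1, 4 and 1 of their counts in all.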
